A study of Mus musculus with 29 samples.

Results

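The genes described here are 10 genes characteristic of the choroid plexus, namely Ttr, Folr1, Aqp1, Clic6, Kl, Kcnj13, Enpp2, Prlr, Otx2 and Calml4. They were chosen by name, from a list drawn up with earlier results of these data known, out of 38355 genes listed for the untreated RNA libraries and 48709 listed for the treated ones. All 10 were listed in both tables. The libraries came from mouse pallium or cortex at E17.5 (days of embryonic development).

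RNA was sequenced from 19 libraries in 5 groups. The untreated experiment held 4 libraries lettered C and 3 lettered M, numbered 2 to 4. In the study's own column names these letters stand for controls and for double conditional knockouts (dcKO), in which floxed alleles of BAF155 (Smarcc1) and BAF170 (Smarcc2) were removed by Cre under a human GFAP promoter. The deposited genotype field gave the dcKO with hGFAP-Cre for all untreated and ChIP-seq libraries, so only the letters separated the groups. The treated experiment held 4 wild type (WT) libraries and 4 dcKO libraries from embryos of dams given the vehicle DMSO, and 4 dcKO libraries from embryos of dams given the Wnt inhibitor ICG-001, which blocks the binding of β-catenin to its coactivator CBP. The study's methods name heterozygous floxed embryos with Cre as controls, whereas the labels of the treated controls read WT. Cre of this line acts in the medial pallium before the dorsal and lateral pallium, and cells outside its domain keep both genes. The histone mark H3K27me3 was mapped by ChIP-seq in 4 libraries lettered C and 4 lettered K, each set against 1 pooled input of its letter. Libraries are named below by group and replicate number. The labels do not tie libraries to animals, so p-values measure the spread between these libraries, which may in part be technical.

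The choroid plexus is a folded sheet of epithelium around a vascular core that hangs into the ventricles and secretes cerebrospinal fluid. Its forebrain part arises at the dorsal midline, beside the cortical hem, where BMP and Wnt signals act, and it stays attached to the medial edge of the pallium. Its epithelium makes transthyretin in great amount, moves water, ions and folate across its apical face, and depends on the transcription factor Otx2.

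The members fall into 4 roles. Ttr, Enpp2 and Kl encode proteins released from the epithelium: transthyretin carries thyroid hormone and retinol-binding protein, Enpp2 (autotaxin) makes the lipid lysophosphatidic acid, and Klotho is a coreceptor for fibroblast growth factors whose ectodomain is shed. Aqp1 is a water channel, Kcnj13 is the potassium channel Kir7.1, Clic6 belongs to the chloride intracellular channel family, and Folr1 binds folate. Prlr is the prolactin receptor. Otx2 is a homeodomain factor and Calml4 a calmodulin-like protein. In GENCODE M21 on GRCm38, Otx2 lies on the minus strand at chr14:48657677-48673819, Kl at chr5:150952607-150993817, Clic6 at chr16:92485736-92541243, Aqp1 at chr6:55336432-55348555 and Calml4 at chr9:62858080-62875921. Enpp2 is at chr15:54838901-54952892, Prlr at chr15:10177238-10349180, Folr1 at chr7:101858331-101870788 and Kcnj13 at chr1:87386363-87394729.

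RefSeq (GRCm38.p6) gave the 250 bases before a start for 6 of the 10 members, with 11 starts in all. Ttr, Folr1, Clic6 and Enpp2 were without an entry. The promoters below are shown because the H3K27me3 peaks described later lie over or beside them in 3 cases and are missing in the fourth. They are printed 5′ to 3′ on the strand of the gene, and capitals mark each CG dinucleotide.
Otx2, chr14:48665110-48665359, minus strand: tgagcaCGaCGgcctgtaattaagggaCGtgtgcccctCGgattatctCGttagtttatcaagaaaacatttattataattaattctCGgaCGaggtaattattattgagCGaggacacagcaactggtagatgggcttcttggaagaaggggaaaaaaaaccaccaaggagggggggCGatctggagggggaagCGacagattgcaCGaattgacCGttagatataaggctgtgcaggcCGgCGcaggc
Kl, chr5:150952357-150952606, plus strand: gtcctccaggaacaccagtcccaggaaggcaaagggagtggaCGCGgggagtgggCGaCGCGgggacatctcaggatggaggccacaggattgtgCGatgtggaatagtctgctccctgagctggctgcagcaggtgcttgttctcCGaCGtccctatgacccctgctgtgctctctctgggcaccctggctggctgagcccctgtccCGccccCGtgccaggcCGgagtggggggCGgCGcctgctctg
Calml4, chr9:62857854-62858103, plus strand: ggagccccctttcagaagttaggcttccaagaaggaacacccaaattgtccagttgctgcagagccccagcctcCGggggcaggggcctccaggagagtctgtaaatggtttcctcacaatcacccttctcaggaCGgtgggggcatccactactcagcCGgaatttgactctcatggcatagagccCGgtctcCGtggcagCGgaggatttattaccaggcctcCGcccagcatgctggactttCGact
Kcnj13, chr1:87394730-87394979, minus strand: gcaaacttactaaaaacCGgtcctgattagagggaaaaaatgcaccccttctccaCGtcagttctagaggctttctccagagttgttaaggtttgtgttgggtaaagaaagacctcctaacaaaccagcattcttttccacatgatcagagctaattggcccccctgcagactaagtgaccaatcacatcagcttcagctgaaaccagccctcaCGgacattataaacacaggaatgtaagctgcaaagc
The Otx2 window held 14 CG dinucleotides, Kl 13, Calml4 8 and Kcnj13 3, beside a median of 6 over 32851 promoters of this length. At least 14 were found in 29.4% of all promoters, and at least 3 in 71%. The other 3 starts of Otx2 had 6, 8 and 9, the 3 starts of Prlr 6, 2 and 2, and Aqp1 had 5. The letters TAATCC, the site that homeodomain factors of the Otx class prefer, were searched on both strands. They were found in 1 of the 11 promoters of members and in 6.25% of all promoters. The match was in the Otx2 window printed above, read there as GGATTA from 211 to 206 bases before the start.

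The libraries held 11946658 to 28391046 reads assigned to genes in the untreated experiment and 12514443 to 26600594 in the treated one. Levels are given as CPM, read counts scaled to a common library size after correction by the trimmed mean of M values (TMM). The deleted genes were examined first. Smarcc1 lay at 247 to 269 CPM in the C libraries and 245 to 299 CPM in the WT vehicle libraries. Among the libraries labelled dcKO, it lay at 128 and 135 CPM in M3 and M4, at 133 to 138 CPM in dcKO vehicle 1, 3 and 4 and at 139.8 CPM in dcKO Wnt inhibitor 3. The library labelled M2 had 245 CPM, dcKO vehicle 2 had 242 CPM, and dcKO Wnt inhibitor 1, 2 and 4 had 214, 252 and 173 CPM. Smarcc2 followed the same division, at 669.9 CPM in M2 and 692 CPM in dcKO vehicle 2. In dcKO Wnt inhibitor 1 to 4 it was at 644, 695, 416 and 586 CPM. The libraries M2, dcKO vehicle 2 and dcKO Wnt inhibitor 2 went against their labels at the deleted genes. For Smarcc1, dcKO Wnt inhibitor 1 and 4 lay between the controls and dcKO Wnt inhibitor 3, with number 1 nearer to the controls. The names used below are those of the labels. Every comparison was also made without M2 or without dcKO vehicle 2 and dcKO Wnt inhibitor 1 and 2.

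The experiments were not clearly independent of each other. Over 16156 genes, deviations from the group mean in log2 CPM correlated at r of 0.183 to 0.546 between C and WT vehicle libraries with the same number, and at -0.372 to 0.195 between those with different numbers. For M and dcKO vehicle the values were 0.527 to 0.821 for the same number and -0.702 to 0.489 for different numbers. Each of the 4 C and 3 M libraries correlated best with the library of its own number. These r values are across genes, which are not independent replicates. The labels do not say that the experiments shared animals or RNA, and a repeat of a pattern between them is not given as support below.

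In the control libraries, Ttr and Clic6 kept the order of the replicate numbers between the experiments. Otx2 kept only numbers 2 and 4 above 1 and 3. Prlr kept neither, with its lowest values in C3 and in WT vehicle 1. Between M2 to M4 and dcKO vehicle 2 to 4, Clic6, Otx2 and Prlr kept their order and Ttr did not. Ttr was at 4.24, 12.9, 3.56 and 119.6 CPM in C1 to C4 and at 3.89, 11.4, 3.14 and 114 CPM in WT vehicle 1 to 4. Clic6 was at 0.966, 1.46, 0.925 and 5.24 CPM in C1 to C4 and at 0.921, 1.43, 0.662 and 6.24 CPM in WT vehicle 1 to 4. In both experiments the control library numbered 4 was the highest and the one numbered 2 the next. Otx2, at 1.51, 2.61, 1.78 and 2.39 CPM in C1 to C4, was at 1.69, 2.05, 1.65 and 2.36 CPM in WT vehicle 1 to 4, so that numbers 2 and 4 were again above 1 and 3.

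**Figure D1:**
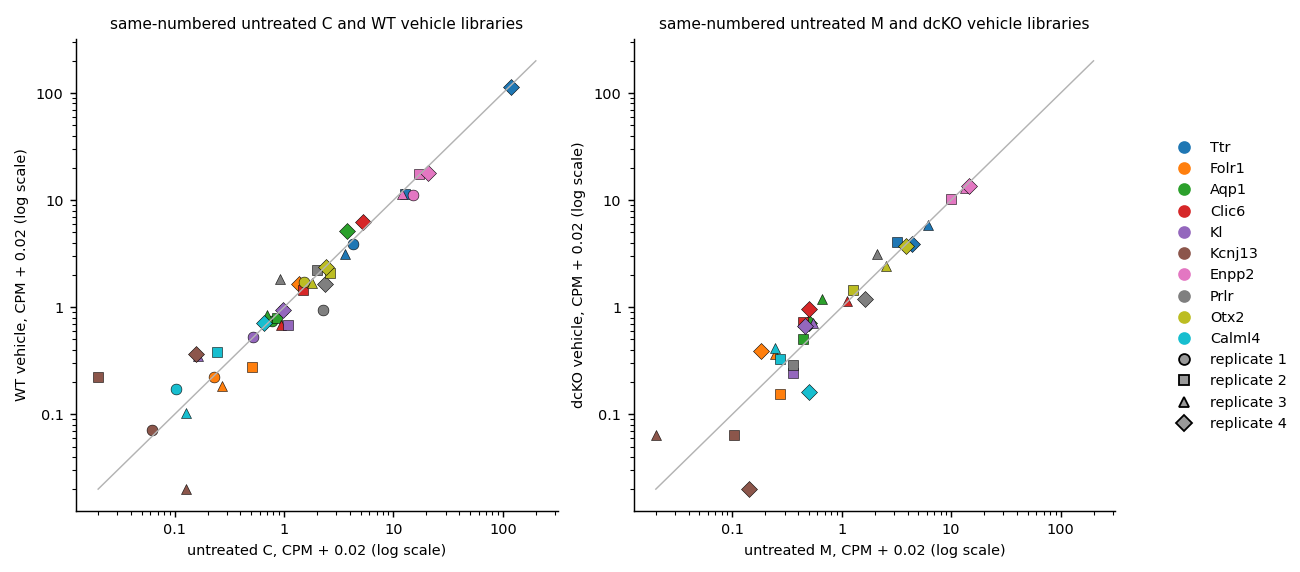
Each point is 1 member in a pair of libraries with the same replicate number, untreated on the x axis and vehicle-treated on the y axis, in CPM plus 0.02 on log scales, with colour for the gene, symbol for the number and a line of equality. Ttr of number 4, at 119.6 and 114 CPM, is the highest point of the control panel and lies near the line, and Kcnj13, with at most 9 reads, and Prlr have points away from it.

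Ttr had the widest range of all members. Its level was 3.19, 6.17 and 4.32 CPM in M2, M3 and M4 and 4.37, 4.05, 5.80 and 3.87 CPM in dcKO vehicle 1 to 4. It was 803, 147, 448 and 4.03 CPM in dcKO Wnt inhibitor 1 to 4. The libraries C4, WT vehicle 4 and dcKO Wnt inhibitor 1, 2 and 3 stood at 114 CPM or more, and all others at 12.9 CPM or less. The fourth dcKO Wnt inhibitor library lay within the range of the vehicle libraries. The counts behind these levels ran from 38 reads in M2 and WT vehicle 3 to 13424 reads in dcKO Wnt inhibitor 1.

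Clic6, Aqp1 and Folr1, the channel and transport genes, were high in the same libraries as Ttr but less steeply. Clic6 was at 0.420, 1.10 and 0.485 CPM in M2 to M4, at 1.26, 0.713, 1.13 and 0.932 CPM in dcKO vehicle 1 to 4 and at 16.7, 5.68, 15 and 0.957 CPM in dcKO Wnt inhibitor 1 to 4. Aqp1 was at 0.756, 0.842, 0.676 and 3.71 CPM in C1 to C4, at 0.420, 0.644 and 0.485 CPM in M2 to M4, and at 0.716, 0.768, 0.827 and 5.15 CPM in WT vehicle 1 to 4. It was at 0.992, 0.490, 1.18 and 0.699 CPM in dcKO vehicle 1 to 4 and at 12.3, 3.04, 8.94 and 1.28 CPM in dcKO Wnt inhibitor 1 to 4. All 4 Wnt inhibitor libraries were above all 4 dcKO vehicle libraries for Aqp1, the fourth by a narrow margin.

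Folr1 was at 0.210, 0.487, 0.249 and 1.36 CPM in C1 to C4, at 0.252, 0.227 and 0.162 CPM in M2 to M4 and at 0.205, 0.256, 0.165 and 1.63 CPM in WT vehicle 1 to 4. It was at 0.361, 0.134, 0.349 and 0.373 CPM in dcKO vehicle 1 to 4, which are 3 to 8 reads, and at 8.73, 2.18, 6.12 and 0.279 CPM in dcKO Wnt inhibitor 1 to 4. Calml4 was at 0.084, 0.222, 0.107 and 0.633 CPM in C1 to C4, at 0.252, 0.227 and 0.485 CPM in M2 to M4 and at 0.153, 0.358, 0.0827 and 0.697 CPM in WT vehicle 1 to 4. For dcKO vehicle 1 to 4 its level was 0.225, 0.312, 0.392 and 0.140 CPM, and for dcKO Wnt inhibitor 1 to 4 it was 3.71, 0.517, 1.99 and 0.399 CPM. Both genes rest on few reads in most libraries.

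Set beside Ttr within each library, these genes made up a smaller percentage where Ttr was high. The CPM of Folr1 was 1.13% of that of Ttr in C4, 1.43% in WT vehicle 4 and 1.09%, 1.49% and 1.37% in dcKO Wnt inhibitor 1 to 3, and between 2.25% and 9.64% in every other library. Clic6 stood at 4.38% in C4, 5.46% in WT vehicle 4, and 2.09%, 3.88% and 3.35% in dcKO Wnt inhibitor 1 to 3. In dcKO Wnt inhibitor 4 it was 23.8%, beside 17.6% to 28.9% in the dcKO vehicle libraries. Aqp1 ran from 1.53% in dcKO Wnt inhibitor 1 to 31.7% in dcKO Wnt inhibitor 4. Ttr is the divisor of these percentages, so they are not independent of its level.

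Enpp2 and Otx2 followed Ttr only loosely. Enpp2 was at 15, 17.2, 11.8 and 20.5 CPM in C1 to C4, at 9.91, 13.3 and 14.7 CPM in M2 to M4 and at 11, 17.4, 11.4 and 17.8 CPM in WT vehicle 1 to 4. It was at 12, 10.3, 13.1 and 13.6 CPM in dcKO vehicle 1 to 4 and at 20.8, 13.6, 17.6 and 12.4 CPM in dcKO Wnt inhibitor 1 to 4. The groups overlapped throughout, and the highest library held 2.1 times the lowest.

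Otx2 was at 1.26, 2.5 and 3.84 CPM in M2 to M4 and at 2.53, 1.43, 2.40 and 3.68 CPM in dcKO vehicle 1 to 4. In dcKO Wnt inhibitor 1 to 4 it was at 7.89, 5.17, 6.12 and 5.38 CPM. All 4 of these libraries were above every other library of the series, including the fourth, where Ttr was at 4.03 CPM. C4 and WT vehicle 4, with Ttr above 100 CPM, had Otx2 at 2.39 and 2.36 CPM, within the range of the libraries with low Ttr.

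**Figure D2:**
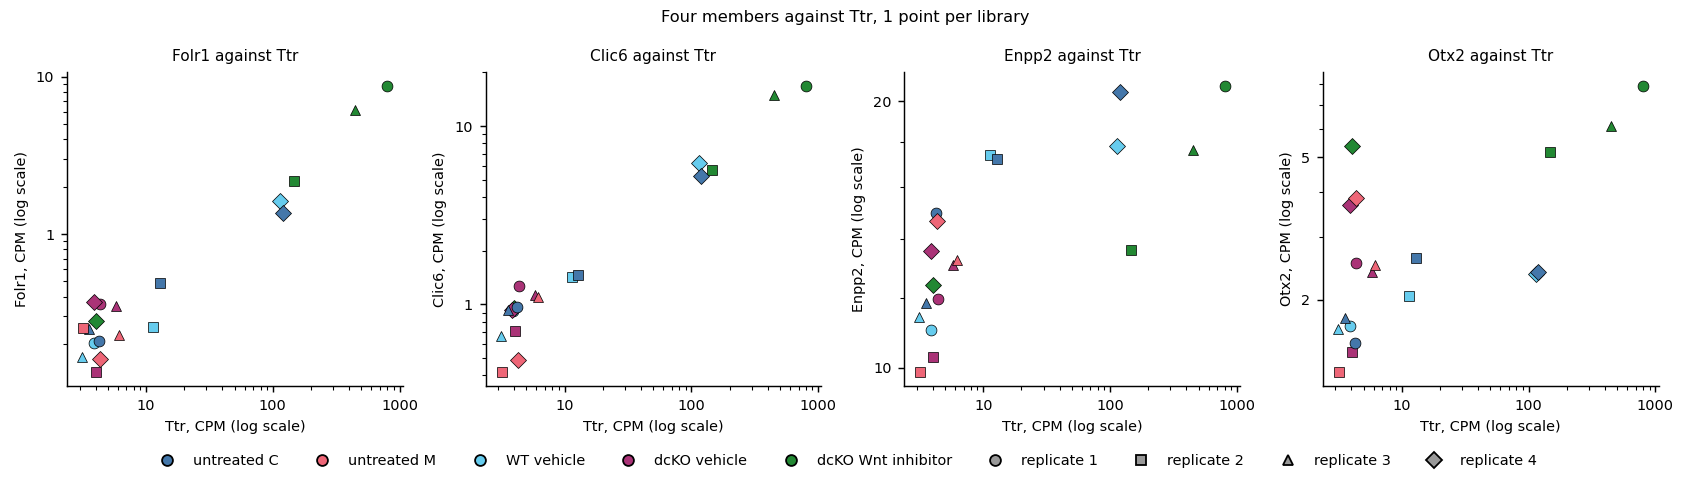
Each point is 1 RNA library, with the CPM of Ttr on the x axis and that of Folr1, Clic6, Enpp2 or Otx2 on the y axis, both on log scales, coloured by group and shaped by replicate number. Folr1 and Clic6 climb with Ttr, while Otx2 in dcKO Wnt inhibitor 4, at 5.38 CPM, stands with the other Wnt inhibitor libraries although Ttr is at 4.03 CPM there.

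Prlr did not follow the other members, and Kl and Kcnj13 were low throughout. Prlr was at 2.23, 1.99, 0.889 and 2.35 CPM in C1 to C4, at 0.336, 2.08 and 1.62 CPM in M2 to M4 and at 0.921, 2.20, 1.82 and 1.63 CPM in WT vehicle 1 to 4. It was at 2.03, 0.267, 3.09 and 1.17 CPM in dcKO vehicle 1 to 4 and at 0.598, 2.24, 0.243 and 0.518 CPM in dcKO Wnt inhibitor 1 to 4. The highest and the lowest Ttr library of the Wnt inhibitor group had near-equal Prlr, and numbers 2 of M and dcKO vehicle were each the lowest of their groups.

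Kl was at or below 1.14 CPM in every library. It was at 0.504, 1.06, 0.142 and 0.949 CPM in C1 to C4, at 0.336, 0.530 and 0.444 CPM in M2 to M4 and at 0.511, 0.665, 0.331 and 0.930 CPM in WT vehicle 1 to 4. The dcKO vehicle libraries held 0.406, 0.223, 0.697 and 0.653 CPM and the dcKO Wnt inhibitor libraries 1.14, 0.804, 0.389 and 0.399 CPM. Kcnj13 had 0 to 9 reads in a library, and its highest levels were 0.389 CPM in dcKO Wnt inhibitor 3 and 0.349 CPM in WT vehicle 4. It had no read in C2, M3, dcKO vehicle 4, WT vehicle 3 and dcKO Wnt inhibitor 4, where a count of 0 allows up to 3 reads, or 0.133, 0.114, 0.140, 0.248 and 0.120 CPM. This limit covers counting error only, and no difference in Kcnj13 was detectable at this depth.

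**Figure D3:**
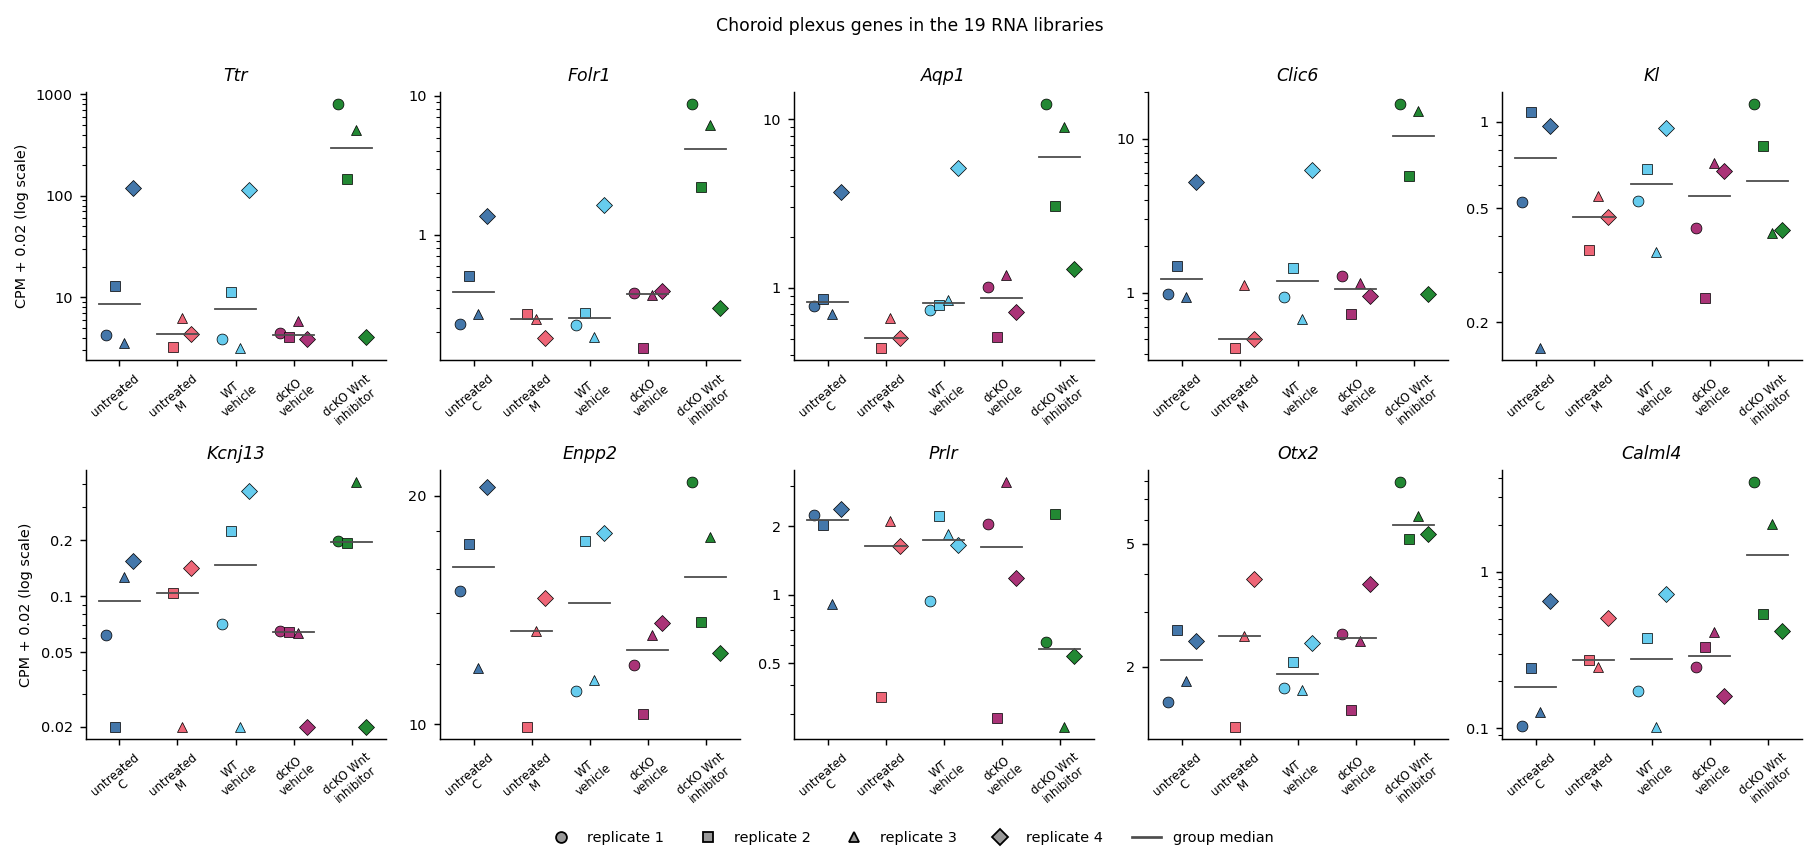
Each panel shows 1 member, with CPM plus 0.02 on a log scale on the y axis and the 5 RNA groups on the x axis. Each point is a library, its symbol gives the replicate number, and the bar is the group median. The number 4 libraries of both control groups and numbers 1 to 3 of the Wnt inhibitor group stand apart for Ttr, Folr1, Aqp1 and Clic6, and all 4 Wnt inhibitor libraries for Otx2.

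Levels can be compared between genes only per length, here as CPM per kilobase of exon. In C1 Ttr stood at 3.58 and Enpp2 at 2.59 CPM per kilobase, and no other member was above 0.358, the value of Otx2. In dcKO Wnt inhibitor 1 Ttr stood at 677 CPM per kilobase, followed by Aqp1 at 4.69, Clic6 at 4.28, Folr1 at 3.80 and Enpp2 at 3.60. Otx2 was at 1.87, Calml4 at 1.02, Kcnj13 at 0.141, Kl at 0.122 and Prlr at 0.0390 CPM per kilobase. Aqp1, Clic6 and Folr1 therefore lay below Enpp2 in the first of these libraries and above it in the other.

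By group median, Ttr was ordered from dcKO vehicle (4.21 CPM) through M (4.32 CPM), WT vehicle (7.62 CPM) and C (8.55 CPM) to the Wnt inhibitor group (297 CPM). No neighbours in this order were apart by more than their ranges, and the Wnt inhibitor group itself spanned 199-fold from its lowest to its highest library. Otx2 was ordered from WT vehicle (1.87 CPM) through C (2.09 CPM), dcKO vehicle (2.46 CPM) and M (2.5 CPM) to the Wnt inhibitor group (5.75 CPM). There the last step was clear of overlap and the earlier ones were not.

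The genotype comparison of the untreated libraries asked whether the loss of BAF subunits changed these genes. The counts were tested over all genes with the quasi-likelihood test of edgeR, and p-values were adjusted by the method of Benjamini and Hochberg. Folr1, Kcnj13 and Calml4 did not pass the filter on low counts, which left 7 of the 10 members. None of the 7 was called at an adjusted p under 0.05, where 0.00634% of 15770 genes were called higher and 0% lower in M. None had an unadjusted p under 0.05 either, where 16% of all genes did. DESeq2 called 0, beside 1.61% of all genes higher and 1.83% lower. With the limit set at an unadjusted p under 0.01, where no member stood, were 2.66% of all genes in the higher and 2.8% in the lower direction.

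The fitted differences of M from C on the log2 scale were -2.89 ± 1.60 (SE) for Ttr, -1.57 ± 0.76 for Clic6 and -1.46 ± 0.72 for Aqp1. Their adjusted p-values from edgeR were 0.449, 0.366 and 0.370. These values turn on C4: without it they were -0.55 for Ttr, -0.65 for Clic6 and -0.50 for Aqp1. The median over the 7 members was -0.51, beside 0.00 over all genes tested. For 1 of the 7, Aqp1, all M libraries lay below all C libraries, and 6.21% of all genes had groups so separated in that direction.

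The other members differed less. Kl was at -0.51, Prlr at -0.34, Enpp2 at -0.34 and Otx2 at 0.35 on the log2 scale. Without M2, whose Smarcc1 was at the level of the controls, Otx2 stood at 0.61 with an adjusted p of 0.162 from edgeR and Prlr at 0.01.

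In the treated experiment, 9 of the 10 members passed the filter, all but Kcnj13. The genotype comparison there, dcKO vehicle against WT vehicle, again called none of the 9. Among 16372 genes, 0.00611% were called higher and 0% lower, and no member had an unadjusted p under 0.05, where 9.46% of all genes did. DESeq2 called 0 members, beside 0.453% of all genes higher and 0.183% lower. With the limit set at an unadjusted p under 0.01 were 1.56% of all genes in the higher direction. The log2 difference of Ttr was -2.90 ± 1.48 with an adjusted p of 0.587 from edgeR, and it was -0.47 without WT vehicle 4.

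Clic6 at -1.27, Aqp1 at -1.22, Folr1 at -1.04 and Calml4 at -0.41 turned on the same library, and stood at -0.03, 0.14, 0.50 and 0.34 without it. Kl stood at -0.36 ± 0.45 (SE), Enpp2 at -0.24 ± 0.20, Prlr at 0.01 ± 0.62 and Otx2 at 0.35 ± 0.26. The groups overlapped for all 9 members, and 5.66% of all genes had groups that did not overlap in one direction or the other. The median over the 9 members was -0.41, and over all genes it was -0.00.

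Whether the genotype difference itself differed between the experiments was tested in a fit of all 19 libraries over 16156 genes. None of the 9 members passed, and neither did any other gene (0% in each direction by edgeR). None of the 9 had an unadjusted p under 0.05 in this test, while 81 of all genes did (0.501%). Because libraries of the same number resemble each other, this test is not one of independent experiments.

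The Wnt inhibitor was compared with the vehicle in the dcKO, which asks whether lowering Wnt signalling changed these genes when BAF subunits were removed. No member was called at an adjusted p under 0.05, where 0.0428% of 16372 genes were called higher and 0.0122% lower. The sizes were large and the spread was too. Ttr differed by 6.27 ± 1.66 on the log2 scale (77.2-fold, adjusted p = 0.180 by edgeR), Folr1 by 3.79 ± 0.90 (13.8-fold, adjusted p = 0.152) and Clic6 by 3.23 ± 0.80 (9.40-fold, adjusted p = 0.155).

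Aqp1 differed by 2.91 ± 0.76 (adjusted p = 0.162 by edgeR), Calml4 by 2.56 ± 0.71 (adjusted p = 0.177) and Otx2 by 1.29 ± 0.25 (adjusted p = 0.109). Of the 9 members, 6 had an unadjusted p under 0.01 in the higher direction, beside 2.44% of all genes. They were Ttr, Folr1, Clic6, Aqp1, Calml4 and Otx2. Enpp2 at 0.40, Kl at 0.41 and Prlr at -0.91 made up the rest. Folr1 and Calml4 passed the filter only through dcKO Wnt inhibitor 1 to 3 and WT vehicle 4, where they were high. Their place in this count is therefore not independent of the comparison and is not given as support. The median over the 9 was 2.56, beside 0.01 over all genes. It is the value of Calml4 itself and has the same limit.

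In 3 of the 9 members, Aqp1, Calml4 and Otx2, every Wnt inhibitor library lay above every dcKO vehicle library, and 4.48% of all genes were separated in that way. For Calml4 the margin was slight, with 0.399 CPM (10 reads) in dcKO Wnt inhibitor 4 and 0.392 CPM (9 reads) in dcKO vehicle 3. For Aqp1 the same libraries had 1.28 and 1.18 CPM. Ttr, Folr1 and Clic6 overlapped because of dcKO Wnt inhibitor 4. The calls depended on the tool: DESeq2's Wald test called 6 members at an adjusted p under 0.05, namely Ttr, Folr1, Clic6, Aqp1, Calml4 and Otx2. It called all 6 higher, beside 1.08% of all genes higher and 0.899% lower. With edgeR, Otx2 passed without dcKO vehicle 2 (adjusted p = 0.0370) and Folr1 and Otx2 passed without dcKO Wnt inhibitor 2 (adjusted p = 0.0480 and 0.0343), and both of these libraries had Smarcc1 at the level of the controls.

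Against WT vehicle, 1 member was called in the Wnt inhibitor group. Otx2 was higher by 1.64 ± 0.26 on the log2 scale, or 3.12-fold, with an adjusted p of 0.0464 by edgeR. Called genes made up 0.0611% of 16372 genes in the higher direction and 0.0366% in the lower. The Otx2 libraries did not overlap, at 5.17 to 7.89 CPM against 1.65 to 2.36 CPM, and it was the only one of the 9 members without overlap, beside 3.48% of all genes. With each of 8 libraries left out in turn, the difference stayed between 1.5 and 1.76, but the call was lost in 6 of the 8 fits, those without WT vehicle 2, 3 or 4 or without dcKO Wnt inhibitor 1, 3 or 4, at adjusted p-values of 0.0645 to 0.179. DESeq2 called 2 members, Otx2 and Calml4, both higher, beside 1.91% of all genes higher and 2.46% lower.

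For the other members the values against WT vehicle were smaller than against dcKO vehicle, and WT vehicle 4 was itself high. Ttr was at 3.37 ± 1.42 (adjusted p = 0.228 by edgeR), Folr1 at 2.75, Calml4 at 2.15, Clic6 at 1.96 and Aqp1 at 1.68 on the log2 scale. Without WT vehicle 4, Ttr stood at 5.80, Folr1 at 4.28 and Clic6 at 3.20. Otx2, Folr1 and Calml4 had an unadjusted p under 0.01, 3 of the 9 members beside 3.01% of all genes. Enpp2 at 0.15, Kl at 0.05 and Prlr at -0.90 did not. This count has the same limit, since Folr1 and Calml4 passed the filter only through libraries in which they were high.

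**Figure D4:**
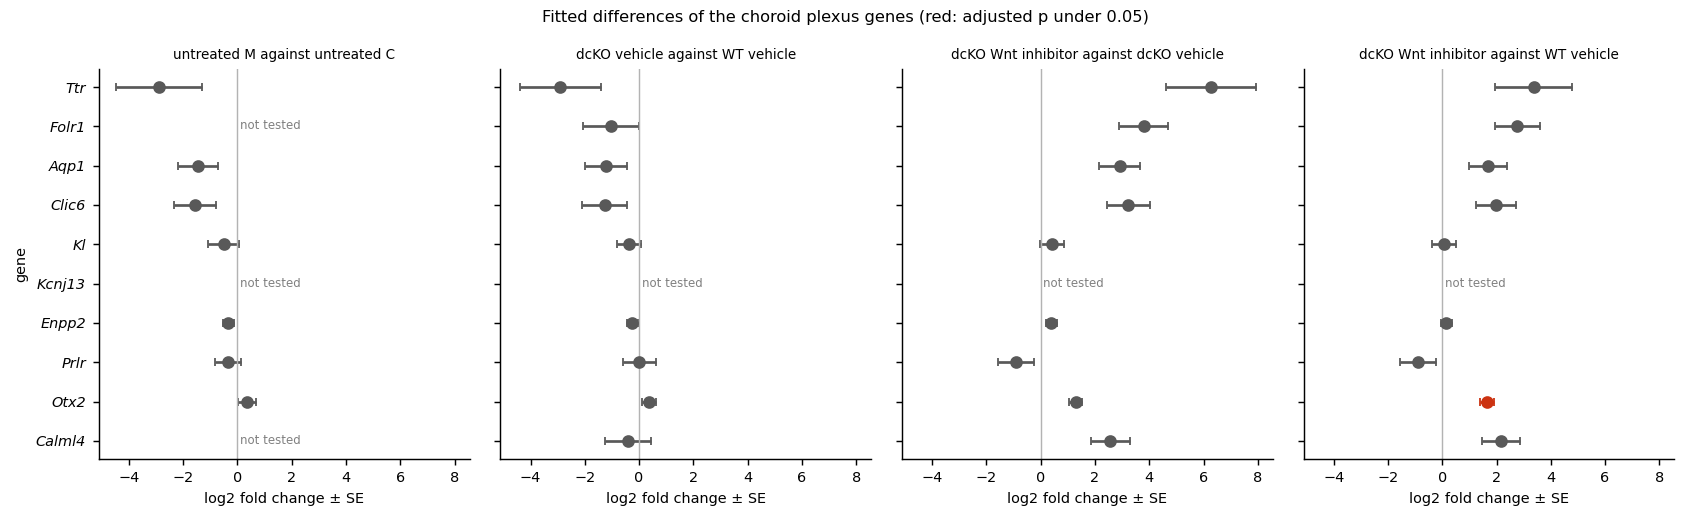
Each panel shows 1 comparison, with the log2 fold change fitted by edgeR on the x axis, bars of 1 standard error, and the members on the y axis. Members that did not pass the filter are marked as not tested, and the only red point, with an adjusted p under 0.05, is Otx2 at 1.64 in the Wnt inhibitor group against WT vehicle.

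These 3 treated comparisons share libraries, so their values stand side by side and do not bear on each other independently. Among the treated libraries labelled dcKO, dcKO vehicle 2 and dcKO Wnt inhibitor 1 and 2 had Smarcc1 nearest the control level. Without them, 2 Wnt inhibitor libraries and 3 dcKO vehicle libraries remained. Otx2 was then 1.55 above WT vehicle (adjusted p = 0.00491 by edgeR) and 1.0 above dcKO vehicle (adjusted p = 0.0681). Prlr differed from WT vehicle by -2.05 on the log2 scale (adjusted p = 0.0457 by edgeR), a call that was not made with all libraries. In that fit 2.66% of all genes were called higher and 4.72% lower against WT vehicle, and 0.303% and 0.72% against dcKO vehicle. Ttr stood at 5.59 against dcKO vehicle and at 2.74 against WT vehicle (adjusted p = 0.247 and 0.385).

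The library dcKO Wnt inhibitor 4, with Smarcc1 at 173 CPM and Smarcc2 at 586 CPM, is 1 of the 2 inhibitor libraries behind these values. Without it as well, only dcKO Wnt inhibitor 3 remained, which is assumed to vary like the other groups. Otx2 was then 1.64 above WT vehicle (adjusted p = 0.0166 by edgeR) and 1.10 above dcKO vehicle (adjusted p = 0.0982). Folr1 was called higher against both, by 3.24 and 4.07 (adjusted p = 0.0369 and 0.0486), and Prlr was not called, at -2.72 against WT vehicle (adjusted p = 0.0944). Of all genes, 1.8% were called higher and 3.58% lower against WT vehicle, and 0.317% and 1.13% against dcKO vehicle.

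A further list of 22 choroid plexus epithelium genes gave the wider view, with 14 tested in the untreated and 19 in the treated experiment. None was called in any of these comparisons by edgeR. The median log2 difference was -0.27 for M against C, -0.45 for dcKO vehicle against WT vehicle, 0.93 for the Wnt inhibitor against dcKO vehicle and 0.73 for the Wnt inhibitor against WT vehicle. At an unadjusted p under 0.05, 1 was higher and 3 lower in M than in C, and 1 higher and 2 lower in dcKO vehicle than in WT vehicle. With the inhibitor 9 were higher and 0 lower than in dcKO vehicle, and 6 higher and 1 lower than in WT vehicle. At that limit, in either direction, stood 16%, 9.46%, 15.8% and 19.8% of all genes in the 4 comparisons. The 14 and the 19 are different sets, so the medians of the 2 experiments are not over the same genes. Kcne2, 1 of the 19, was high in the treated experiment only in WT vehicle 4 and dcKO Wnt inhibitor 1 to 3. A gene like it passes the filter through those libraries, so the treated counts and medians are not given as support.

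By a fixed measure of likeness, Pearson's r between the log2 CPM of a gene and the mean over the members across the 19 libraries, Kcne2 came first of 14023 other genes, with r = 0.967. Kcne2, a potassium channel subunit found in choroid plexus, was at 2.67 CPM in C4, 2.56 CPM in WT vehicle 4 and 8.61, 2.35, 8.65 and 0.0797 CPM in dcKO Wnt inhibitor 1 to 4. It lay between 0.134 and 0.530 CPM elsewhere. Next were Col8a2, a collagen gene, at 0.935, Wfikkn2 at 0.917, Dnajb11 at 0.877, Calr at 0.867, Cfap65 at 0.867, Dpysl2 at 0.861, Ppp1r3b at 0.855, the gene ENSMUSG00000071567 at 0.854 and Gm13416 at 0.851.

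Without dcKO Wnt inhibitor 1 and 3, the libraries farthest from the median, r of Kcne2 was 0.946 and that of Dnajb11 0.735. Among the members, r was 0.987 for Ttr, 0.984 for Clic6, 0.971 for Aqp1 and 0.964 for Folr1, each of which enters the mean itself. It was 0.881 for Calml4, 0.843 for Enpp2, 0.707 for Kcnj13, 0.695 for Otx2, 0.646 for Kl and 0.00 for Prlr. These r values describe the order of likeness and were not tested, since libraries of the same number are not independent.

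Fewer choroid plexus cells and less RNA per cell cannot be told apart in bulk libraries. The markers of other cell types were therefore set beside the members. The summed level of 12 meninges genes was 140.2 and 141 CPM in C2 and C4 and 61.4 and 67.9 CPM in C1 and C3. It was 151 and 158 CPM in WT vehicle 2 and 4, 68.6 and 75.2 CPM in WT vehicle 1 and 3, and 61.2 to 86.7 CPM in the dcKO vehicle libraries. In M2 to M4 it was 61.1, 86.0 and 70.5 CPM. In dcKO Wnt inhibitor 1 to 4 it was 105.7, 71.9, 79.1 and 160.3 CPM. Numbers 1 to 3 followed the order of Ttr, and number 4, with the lowest Ttr, had the highest sum. Of these genes 11 were tested, and none was called by edgeR. Their median log2 difference was -0.91 for M against C and -0.91 for dcKO vehicle against WT vehicle, with 0 of 11 higher in either. It was 0.60 for the inhibitor against dcKO vehicle and -0.23 against WT vehicle.

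The 12 genes of ependyma and motile cilia, some of which choroid plexus cells also express, summed to 29, 20, 23.9 and 15.9 CPM in dcKO Wnt inhibitor 1 to 4, to 12.5 to 19.7 CPM in dcKO vehicle and to 13.4 to 25.2 CPM in WT vehicle. Of these genes 8 were tested, and none was called by edgeR. At an unadjusted p under 0.05, 5 of the 8 were higher and 1 lower with the inhibitor than in dcKO vehicle, and 0 were higher and 4 lower in dcKO vehicle than in WT vehicle. Against WT vehicle, 1 was higher and 1 lower with the inhibitor. Of 5 tested in the untreated experiment, 1 was higher and 0 lower in M than in C. Named here after their values were seen, Ccno and Gmnc, which drive the formation of multiciliated cells, were 4.67-fold and 3.74-fold higher with the inhibitor, and Ak7 and Rarres2 3.15-fold and 2.49-fold. Foxj1 was at 0.53 and Dnah5, a dynein of motile cilia, at -0.74 on the log2 scale. The shares of all genes at this limit were 15.8%, 9.46%, 19.8% and 16%, in the order of the comparisons above. In the test of the difference between experiments, 2 of 9 stood at this limit, Ccno and Rarres2, beside 0.501% of all genes. None was called there. Markers of this list differed in the same comparison as the members, and their part in the values of the members was not tested.

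For the 7 erythroid genes the range was 257 to 314 CPM with the inhibitor, 222 to 251 CPM in dcKO vehicle and 145 to 256 CPM in WT vehicle. None of the 7 was called by edgeR. At an unadjusted p under 0.05, 0 stood between M and C, and 3 were higher in dcKO vehicle than in WT vehicle. With the inhibitor 1 was higher than in dcKO vehicle and 5 than in WT vehicle, and 0 were lower. The shares of all genes are those given next for the endothelium. None of the 9 endothelium genes was called by edgeR. At an unadjusted p under 0.05, 4 were lower in M than in C and 3 lower in dcKO vehicle than in WT vehicle. With the inhibitor 1 was higher than in dcKO vehicle and 3 were lower than in WT vehicle. In each comparison 0 stood in the opposite direction. The shares of all genes were 16%, 9.46%, 15.8% and 19.8%. Retinal pigment cells also express several members: the 8 genes of their list summed to 0.610 to 8.93 CPM over all libraries, Crx was at 0 in every library and Rpe65 at 0 in all but dcKO Wnt inhibitor 4, at 0.0399 CPM. The 12 genes of cortical neurons and radial glia summed to 2653 to 4342 CPM, the defining signal of the labelled tissue. The 9 genes of thalamus and midbrain summed to 23 to 40.3 CPM in M and 22.7 to 25.7 CPM in C. Their sums were 24.8 to 44.8 CPM in dcKO vehicle, 18 to 30.8 CPM in WT vehicle and 15.4 to 33.6 CPM with the inhibitor. None was called by edgeR. At the same limit, 3 of 3 tested were higher in M. Of 5 tested with treatment, 1 was lower with the inhibitor than in dcKO vehicle and 0 differed from WT vehicle. The part of these differences between samples in the values of the members was not tested.

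H3K27me3, a mark laid down by Polycomb complexes at silent developmental genes, gave a readout that the choice of members did not use. Each value is the highest fold enrichment over input of a peak within 2000 bp of an annotated start, as called in each library. The libraries kept 2420911 to 28335352 tags and held 6674 to 46000 peaks, and the part of depth in missing peaks was not tested. Of the 10 members, 6 had a peak in at least 2 of the 8 libraries, compared with 26.4% of 21938 protein-coding genes, and 2 had a peak in all 8, compared with 3.1%.

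Otx2 and Clic6 were those with a peak throughout. At Otx2 the enrichment was 8.69, 5.92, 12 and 5.54 in C1 to C4 and 8.68, 10.9, 5.93 and 12.2 in K1 to K4. In C2 a single peak covered chr14:48650120-48679054, the whole gene, including the promoter printed above, and C4 and K3 each had 1 such wide peak. In C1, C3, K1, K2 and K4 the highest peak lay over or beside another start, chr14:48673819. The peak over the printed promoter was enriched 3.84 times in C1, 4.31 times in K1 and 8.58 times in K4. No peak overlapped that promoter in C3 and K2. At Clic6 it was 13.5, 4.68, 5.42 and 4.04 in C1 to C4 and 21.4, 3.62, 5.77 and 13.4 in K1 to K4, at the inner of its 2 starts, chr16:92498134. Both groups overlapped at both genes.

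Kl was enriched 10, 4.44 and 4.45 times in C1, C2 and C4 and 6.25, 4.85 and 10.1 times in K1, K3 and K4, with no peak in C3 and K2. Those peaks lay over the start and the promoter shown above, from chr5:150952451-150953684 in C1 to chr5:150950965-150954040 in C2. Enpp2 had 8.39, 4.21 and 3.75 in C1, C2 and C4 and 6.43, 4.57 and 6.72 in K1, K3 and K4. The values of C1 and K1 were at an inner start, chr15:54914718, and the others at chr15:54952892. By that second start C1 had 4.23 and K1 6.28. Prlr had 4.01 and 3.93 in C2 and C4 and 3.96 and 5.86 in K3 and K4.

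Calml4 had no peak in any C library and 5.18, 5.17 and 3.73 in K1, K2 and K4. The peak of K1, at chr9:62857590-62857895, reached into the promoter shown above, that of K2 ended before it, and that of K4 lay within the gene. Aqp1 had a single peak, of 3.61, in K4, the library with the most peaks. Ttr, Folr1 and Kcnj13, whose promoter is shown above, had none in any library.

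For the 6 members with a peak in at least 2 libraries, the mean log2 enrichment of K minus C was 1.66 at Calml4, 0.53 at Clic6, 0.25 at Otx2, 0.16 at Kl, 0.14 at Enpp2 and 0.14 at Prlr, with 0 where there was no peak. Two-sided exact permutation tests over the 70 splits gave p = 0.143, 0.486, 0.457, 0.714, 0.886 and 0.83. None of the 6 had p under 0.05, beside 0.398% of 5783 genes higher in K and 0.0173% lower. The smallest p that 70 splits allow is 0.0286. The mark and the RNA came from separate libraries, and Otx2 carried it in all 8 while its RNA was at 1.26 to 7.89 CPM.

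**Figure D5:**
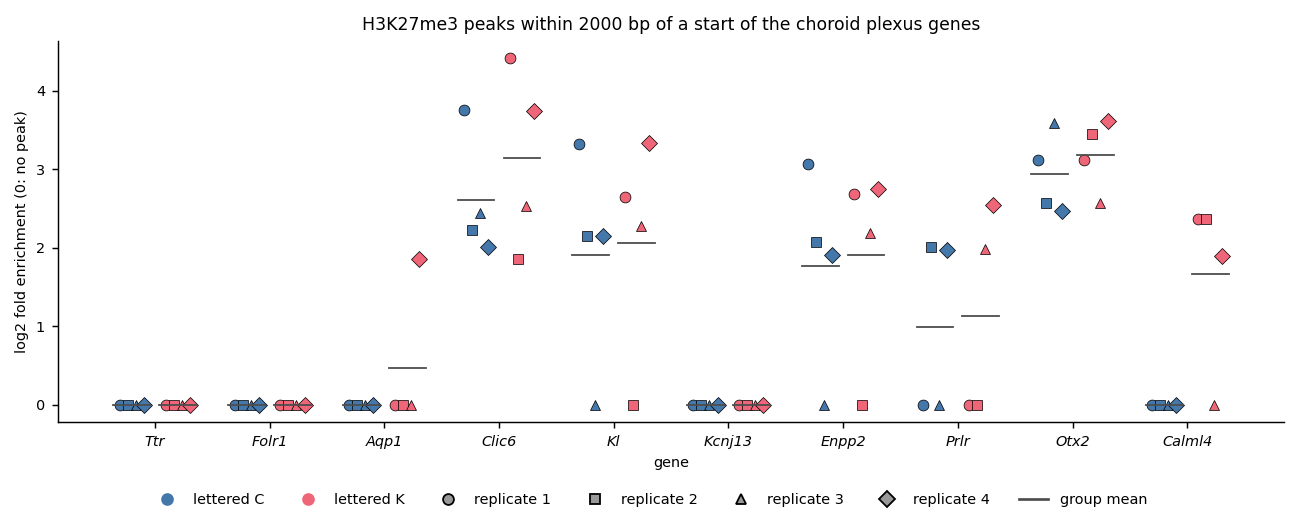
The members are on the x axis and the log2 fold enrichment of the highest H3K27me3 peak within 2000 bp of a start on the y axis, with 0 for no peak, for 4 libraries lettered C and 4 lettered K. Each symbol is a library and each bar a group mean. Otx2 and Clic6 are above 0 in all 8 libraries, Calml4 in 3 lettered K, and Ttr, Folr1 and Kcnj13 in none.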

How the data were processed

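RNA libraries were prepared with an unstranded TruSeq kit from mouse pallium or cortex. Per the study's methods, STAR aligned the reads to mm10 and featureCounts assigned them to genes, and the authors deposited these raw counts per Ensembl gene as they were. For H3K27me3 broad peaks were called by the authors library by library, with MACS2 and pooled input as background. The deposited lists hold a fold enrichment and a -log10 q-value for each peak. The gene annotation behind the counts is not given in the sources used here.

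The count fits used edgeR 4.0.16 under R 4.3.3 (TMM, filterByExpr, robust quasi-likelihood test), the 7 untreated libraries by themselves and the 12 treated libraries together, and p-values were adjusted over all genes tested at a threshold of 0.05. Standard errors are the log2 fold change divided by the root of F. Groups came from the sample titles or treatment labels. Peaks were matched to starts of GENCODE M21 within 2000 bp, and log2 fold enrichment was compared by exact permutation tests. The likeness used log2 of CPM plus 0.5, genes with a mean of at least 1 CPM, and each experiment centred on its own mean. The 10 such genes with the highest r are named, with all members and both deleted genes, and from other lists only called genes were to be named. Same-numbered libraries of the groups compared correlated at r of -0.342 to 0.462 over genes, so the numbers were not taken as pairs. The fits were tested on simulated data with known changes. Alternatives were DESeq2 1.42.0, its size factors, no filter, the replicate block, only the groups compared, each library left out and, for peaks, a q-value limit of 0.01 and other windows. Other software was Python 3.11.15, pandas 2.3.3, numpy 2.4.6 and matplotlib 3.10.9. The members and lists were chosen with earlier results of these data known. Reads from near-identical gene copies or antisense partners cannot be told apart in these counts.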

Additional observations from a re-analysis of the deposited data

Results flagged for a closer look

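Of 60 groups of 4 libraries examined, 12 had a library whose gap to the nearest other took up most of the group's range by Dixon's test, and chance alone gives about 1 in 20 groups. The members share libraries, so these are not separate events. Ttr stood apart in C4, at 119.6 CPM beside 3.56 to 12.9 CPM in the other C libraries, and in WT vehicle 4, at 114 CPM beside 3.14 to 11.4 CPM. Aqp1 did so at 3.71 CPM in C4 and 5.15 CPM in WT vehicle 4, and Clic6 at 5.24 CPM in C4 and 6.24 CPM in WT vehicle 4. Folr1 stood apart in WT vehicle 4 at 1.63 CPM. The groups of 3 M libraries were not examined in this way.

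In the dcKO vehicle group, number 2 was low for Folr1, at 0.134 CPM beside 0.349 to 0.373 CPM, which are 3 reads beside 8. The same library stood apart for the deleted genes, with Smarcc1 at 242 CPM beside 133 to 138 CPM and Smarcc2 at 692 CPM beside 425 to 439 CPM. Kcnj13 stood apart in dcKO vehicle 4 at 0 CPM beside 1 read in each of the other 3 libraries, which is within counting error. For H3K27me3, Aqp1 stood apart in K4 with a log2 fold enrichment of 1.85, beside no peak in K1 to K3. No cause was tested for any of these values.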

How the results depend on the processing

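The number of members called stayed at 0 under every alternative run for M against C, for dcKO vehicle against WT vehicle and for the difference between the experiments. For the Wnt inhibitor against dcKO vehicle it was 0, with 1 under no filter (Otx2), 6 under DESeq2, 1 without the 4 libraries labelled dcKO with the highest Smarcc1 (Folr1) and 0 to 2 with each library left out. For the Wnt inhibitor against WT vehicle it was 1, with 2 under DESeq2 (Otx2 and Calml4), 2 without the 3 libraries with Smarcc1 near the control level (Otx2 and Prlr), 2 without those 4 (Otx2 and Folr1), both chosen after seeing the data, and 0 to 2 with each library left out. For H3K27me3 it was 0, and 0 to 1 with each library left out (Calml4, at 2.21 without K3). Without those 3 libraries Kl turned to -0.56 against dcKO vehicle and -0.70 against WT vehicle, and without those 4 to -0.58 and -0.72. Counting only peaks over the start itself turned H3K27me3 at Enpp2 to -0.40.

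With each library left out, these log2 differences changed sign: for M against C, Prlr (-0.75 to 0.0058) and Otx2 (-0.069 to 0.61); for dcKO vehicle against WT vehicle, Aqp1 (-1.50 to 0.14), Folr1 (-1.32 to 0.50), Calml4 (-0.65 to 0.34) and Prlr (-0.50 to 0.36). Kl against WT vehicle (-0.30 to 0.35) and H3K27me3 at Kl (-0.48 to 0.84), Enpp2 (-0.44 to 0.78) and Prlr (-0.33 to 0.52) also did. None of these was called, and the cause was not tested.

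With the replicate number as a block, the counts of called members were 0, 0, 0 and 1 in the 4 RNA comparisons, 0 for the difference between experiments (with the number shared by both experiments as the block, chosen after seeing the data) and 0 for H3K27me3. The called member was Otx2, at 1.65 with an adjusted p of 0.0327 by edgeR. The 4 pairs of H3K27me3 libraries could not give a p below 0.125. DESeq2 gave no adjusted p for Ttr in M against C. Depth limits Folr1, Calml4 and Kcnj13, which rest on few reads in most libraries.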

Other observations

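The forebrain choroid plexus borders the cortical hem, a source of Wnt and BMP ligands, and the treated experiment used a Wnt inhibitor, so the genes of both were examined as fixed lists. Of 16 genes of the cortical hem and roof plate, 12 were tested and none was called by edgeR in any of the 4 comparisons between groups. At an unadjusted p under 0.05, 2 were higher in M than in C and 2 were higher in dcKO vehicle than in WT vehicle. With the inhibitor 2 were higher and 2 lower than in dcKO vehicle, and 1 was higher than in WT vehicle. At this limit, in either direction, stood 16%, 9.46%, 15.8% and 19.8% of all genes in the 4 comparisons. Their median log2 differences were 0.08, 0.09, 0.09 and 0.28 in the same order. The summed level of the list was 80.6 to 93.2 CPM with the inhibitor, 91.3 to 103.6 CPM in dcKO vehicle and 72.2 to 100 CPM in WT vehicle, which overlap.

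All 12 feedback targets of Wnt signalling were tested, and none was called by edgeR. At an unadjusted p under 0.05, 3 were higher and 2 lower in M than in C, and 4 higher and 2 lower in dcKO vehicle than in WT vehicle. With the inhibitor 0 stood at this limit against dcKO vehicle, and 2 higher and 3 lower against WT vehicle, beside the same shares of all genes. The median log2 differences in the same order were -0.04, -0.14, -0.00 and -0.09, and the summed level was 159 to 172 CPM with the inhibitor and 168 to 188 CPM in dcKO vehicle. The other choroid plexus genes and the members had medians of 0.93 and 2.56 in that comparison. Both medians include genes that passed the filter through libraries in which they were high, and neither is given as support.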
